A study of Mus musculus with 5 samples.

Results

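The cells described here carried the T cell receptor alpha chain of invariant natural killer T (iNKT) cells in a pool of lymph node T cells from mice. A cell was taken when the deposited contig table gave it a productive alpha chain (TRA) contig joining the V segment TRAV11 or TRAV11D to the J segment TRAJ18. In the gene matrix its barcode also needed 200 genes or more, with mitochondrial transcripts giving no more than 10% of UMIs. A UMI is a unique molecular identifier, the tag that marks 1 captured RNA molecule. The rule found 101 of 7043 cells with a productive TRA contig, a share of 1.43% (exact Clopper-Pearson 95% interval 1.17 to 1.74), among 12804 cells kept in all. All 101 contigs were called TRAV11 and 0 were called TRAV11D. Another 4 barcodes with the chain were not among those of the gene matrix, and the filters removed 0 cells. The comparison group was the 6942 other cells with a productive TRA contig.

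The cells came from the mediastinal lymph nodes of C57BL/6 mice aged 2, 6, 12 and 18 months, in a study of the ageing heart and the lymph nodes that drain it. The series design gives them as T cells high in CD44, a mark of antigen experience, and the labels name CD4+ and CD8+ T cells. Each condition was stained with its own hashtag antibody, the sorted cells were mixed at differing ratios, and the mixture was run as 1 droplet library with matched gene and receptor reads. The files held 8 hashtags. No source used here gives the age of a hashtag or the number of mice behind it. Hashtags are therefore treated as separately stained samples without age or order. P-values over them bear only on these stained samples, whose differences may be technical, and do not measure a spread between mice. The cells with the TRAV11-TRAJ18 chain had a median of 3736 UMIs and 1581 genes, against 3599.5 UMIs and 1536.5 genes in the other TRA cells. Of 9473 barcodes with contigs, 8792 were found in the gene matrix.

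iNKT cells recognise lipid antigens on CD1d, a non-polymorphic relative of the MHC class I molecules, through a receptor whose alpha chain is nearly the same in all of them and pairs with a limited set of beta chains. They depend on PLZF, the transcription factor encoded by Zbtb16, and leave the thymus with effector programmes already set. NKT1 cells use T-bet and resemble NK cells, NKT2 cells use GATA3 and make IL-4, and NKT17 cells make IL-17. NKT17 cells are known to be frequent in mouse lymph nodes.

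The third complementarity-determining region of the alpha chain (CDR3, the loop formed where V and J join) is shown first, since the rule fixed the V and J segments and left this join free. Trav11 lies at chr14:53519303-53519859 on the plus strand and Traj18 at chr14:54200777-54200842 on the plus strand (GRCm38, GENCODE M21). The germline ends were read from that genome, and the CDR3 sequences come from the deposited contigs. Each is written 5′ to 3′ from the conserved cysteine codon, and capitals mark bases that match neither the Trav11 end nor the Traj18 end.
Trav11 germline end: tgtgtggtgggcg
Traj18 germline end: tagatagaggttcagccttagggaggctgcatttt
CDR3 of 48 cells: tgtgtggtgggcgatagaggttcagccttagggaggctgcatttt
CDR3 of 23 cells: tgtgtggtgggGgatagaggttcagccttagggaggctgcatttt
CDR3 of 15 cells: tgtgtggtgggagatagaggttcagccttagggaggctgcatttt
CDR3 of 8 cells: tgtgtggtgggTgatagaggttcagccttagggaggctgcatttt
CDR3 of 1 cell, the longest: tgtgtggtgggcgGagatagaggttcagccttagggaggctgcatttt

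The 101 cells held 11 distinct CDR3 sequences, and 100 of 101 had a length of 45 bases. The printed sequences of 45 bases differ only in the last base of the codon at bases 10 to 12, which reads ggc, ggg, gga or ggt, all codons for glycine. These 4 and 1 rarer sequence encode 1 protein loop, carried by 95 of 101 cells (94.1%). The remaining 6 cells held 6 sequences and 5 further proteins, each in 1 or 2 cells. In 63 cells every base of the CDR3 could be assigned to the germline ends. The shared protein loop occurred in 85 clonotypes (receptors with the same chains, as the authors' pipeline grouped them), and 0 of the 6942 other cells had it. Among the other cells the most widely shared TRA loop occurred in 31 clonotypes.

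The beta chains were diverse, though some were shared between cells. All 101 cells had a productive beta chain (TRB) contig. Their 114 contigs held 95 distinct CDR3 sequences of 10 to 17 codons (median 14, the same as in the other cells). Of these sequences, 15 were found in 2 or more cells. No TRB CDR3 protein was found under more than 1 hashtag. The cells formed 91 clonotypes, of which 83 were single cells and 8 held 18 cells between them. The 15 repeated sequences outnumbered the 8 repeated clonotypes, so clonotype counts may understate shared beta chains. Cells in clonotypes of 2 or more made up 17.8% of the 101, against 27.7% of the other TRA cells. The largest clonotype had 3 of the 101 cells, against 55 of the 6942 others. The groups differ in size and both measures depend on it, so no difference in expansion is read from them. The beta CDR3s of 4 of the repeated clonotypes are shown to set unlike beta loops beside the near-identical alpha loops, with 1 for each of 4 TRBV genes and no base marked.
TRBV13-3 clonotype of 3 cells: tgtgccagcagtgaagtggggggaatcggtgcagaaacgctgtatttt
TRBV1 clonotype of 3 cells: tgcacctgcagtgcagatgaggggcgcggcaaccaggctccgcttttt
TRBV13-2 clonotype of 2 cells: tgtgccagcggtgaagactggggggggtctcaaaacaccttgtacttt
TRBV13-1 clonotype of 2 cells: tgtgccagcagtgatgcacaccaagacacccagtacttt

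TRBV use, which the rule did not touch, was concentrated in 5 genes. TRBV13-1, TRBV13-2, TRBV13-3, TRBV29 or TRBV1 was used by 95 of 101 cells (94.1%, exact 95% interval 87.5 to 97.8), against 2164 of the 6626 other TRA cells with a TRB contig (32.7%, 31.5 to 33.8). Tests used the 6 hashtags with at least 5 TRAV11-TRAJ18 cells (hashtags 1, 2, 3, 4, 5 and 8). The share was 87.5% under hashtag 3, 97.0% under hashtag 4 and every cell under the other 4, and it was 31.5% to 34.8% in the other cells of the same hashtags. The share was higher in 6 of 6 hashtags by a mean of 64.8 percentage points (exact two-sided sign-flip permutation test, p = 0.03125, the smallest p that 6 hashtags allow). TRBV13, TRBV29 and TRBV1 encode the chains known as V-beta 8, 7 and 2, the usual partners of the iNKT alpha chain in mice.

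TRBV13-2 (Trbv13-2, chr6:41121396-41121832, plus strand, GRCm38) was the most frequent, in 37.6% of the cells (28.2 to 47.8) against 10.8% of the others. Its share was 18.2%, 38.5%, 37.5%, 45.5%, 50% and 33.3% in hashtags 1, 2, 3, 4, 5 and 8, and 9.22% to 11.3% in the other cells, so the groups did not overlap. TRBV1 (Trbv1, chr6:40891229-40891885, plus strand) followed with 21.8% (14.2 to 31.1) against 6.04%. In hashtags 1, 2, 3, 4, 5 and 8 its share was 36.4%, 30.8%, 12.5%, 9.09%, 16.7% and 44.4%, against 4.46% to 7.49% in the other cells. TRBV13-3 was found in 14.9% (8.56 to 23.3) against 5.78%, with hashtag values of 12.5% to 22.2% against 5.41% to 7.59%. Each of these 3 genes was higher in 6 of 6 hashtags (exact sign-flip permutation test, p = 0.03125, adjusted p = 0.0391 over 20 TRBV genes). The adjusted p is this low because many genes lower in the TRAV11-TRAJ18 cells also reached the smallest p. Most of those genes were at 0 in these cells under every tested hashtag. Passing the adjustment is therefore not read as separate support.

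The remaining pair did not pass the test. TRBV29 was found in 10.9% (5.56 to 18.7) against 3.68% and was higher in 5 of 6 hashtags (exact permutation p = 0.0938, adjusted p = 0.104). TRBV13-1 was found in 12.9% (7.04 to 21) against 7.30%, but it was present only under hashtags 1 and 4 (18.2% and 24.2%) among the 6 tested. It was at 0 in the cells of the other 4, and the mean difference over hashtags was -0.01 percentage points (exact permutation p = 1.0). Among the genes lower in the TRAV11-TRAJ18 cells, TRBV19, TRBV5, TRBV16 and TRBV2 had 0 of 101 cells, which allows a share of up to 2.97%, against 8.51%, 7.44%, 6.82% and 5.51% of the others (exact permutation p = 0.03125 and adjusted p = 0.0391 for each). Shares of TRBV genes add up, so higher use of some genes forces lower use of others. Contigs labelled with both TRBV12-2 and TRBV13-2 were counted as TRBV13-2, since the 866 cells with that label had 6899 Trbv13-2 UMIs and 227 Trbv12-2 UMIs.

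**Figure D1:**
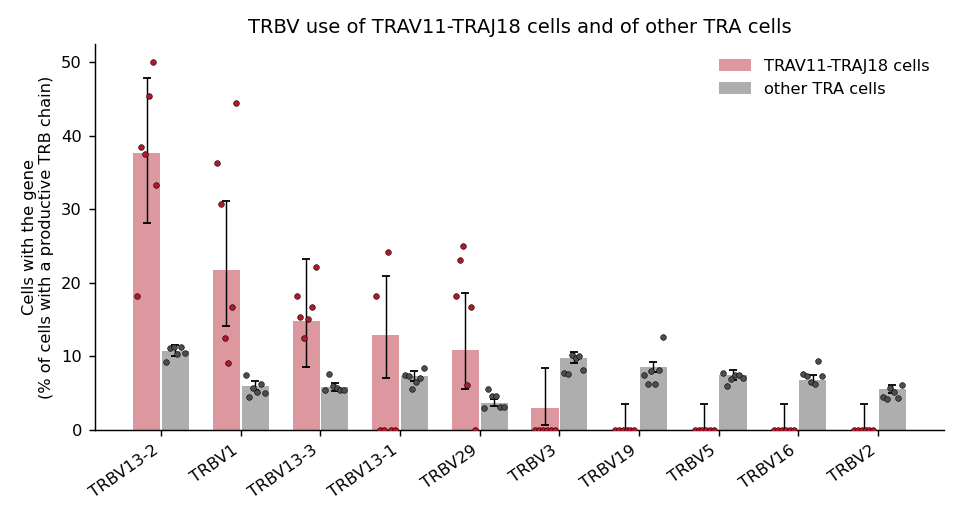
Share of cells using each of 10 TRBV genes, in percent of cells with a productive TRB contig. Bars give all TRAV11-TRAJ18 cells (red) and all other TRA cells (grey) with exact 95% intervals, and points give the 6 hashtags in the order 1, 2, 3, 4, 5, 8. The red bars of TRBV13-2, TRBV1 and TRBV13-3 stand above the grey bars with every red point above every grey point, while the last 5 genes are at 0 in every hashtag.

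The share of TRAV11-TRAJ18 cells differed between hashtags. Under hashtag 4 it was 33 of 597 TRA cells (5.53%, exact 95% interval 3.84 to 7.68), and this hashtag held 32.7% of all the cells described. These 33 cells belonged to 30 clonotypes. Under hashtag 2 it was 13 of 475 (2.74%, 1.47 to 4.63), under hashtag 1 it was 11 of 733 (1.5%, 0.751 to 2.67), and under hashtag 3 it was 8 of 605 (1.32%, 0.573 to 2.59). Hashtag 8 had 9 of 976 (0.922%, 0.422 to 1.74), hashtag 5 had 6 of 702 (0.855%, 0.314 to 1.85) and hashtag 6 had 3 of 604 (0.497%, 0.103 to 1.44). The lowest share was 2 of 1227 under hashtag 7 (0.163%, 0.0197 to 0.588). Another 16 cells of 1124 (1.42%) had no clear hashtag. The interval of hashtag 4 lay above those of hashtags 1, 3, 5, 6, 7 and 8 and overlapped that of hashtag 2. The intervals cover counting error only. The ages behind the hashtags were not used, so no relation to age was tested.

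**Figure D2:**
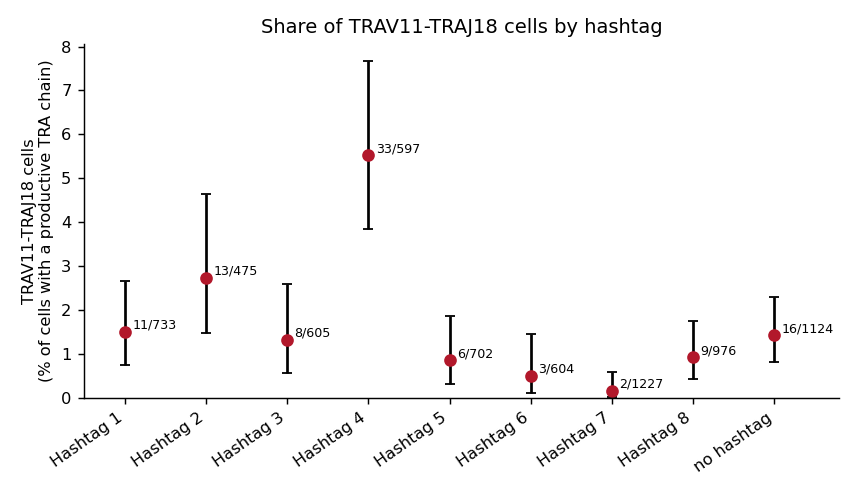
TRAV11-TRAJ18 cells in percent of cells with a productive TRA contig, for each of 8 hashtags and for cells without a hashtag. Points give the share, bars the exact 95% interval, and the numbers the cells counted; hashtag 4 stands highest at 5.53% and hashtag 7 lowest at 0.163%.

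Zbtb16, the marker fixed for the cell type, checked the label. A Zbtb16 UMI was found in 39 of 101 cells (38.6%, exact 95% interval 29.1 to 48.8), in 40 of the 6942 other TRA cells (0.576%) and in 1 of 641 cells with B cell genes and no receptor contig (0.156%, median 3207 UMIs), taken as the background of free RNA. With each cell thinned to 1000 UMIs the shares were 18.6% of 97 cells and 0.188% of 6381 cells, with 4 and 561 shallower cells left out. Zbtb16 (chr9:48654297-48836222, minus strand, GRCm38) stood at 163, 277, 307, 135, 245 and 133 CPM (UMIs scaled to a fixed library total) in hashtags 1, 2, 3, 4, 5 and 8, against 0.645 to 3.54 CPM in the other TRA cells. Every hashtag was above every value of the other cells. Cells with either segment alone did not show this marker. It was found in 0 of 19 cells with TRAV11 and another J segment and in 0 of 126 cells with TRAJ18 and another V segment, which allow shares of cells with a UMI of up to 15.8% and 2.38% and set no limit on cells that express the gene.

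The labels name CD4+ and CD8+ T cells, but 79 of 101 cells (78.2%) had no UMI of Cd4, Cd8a or Cd8b1, against 24.5% of the other TRA cells. iNKT cells of mice are known to be CD4-positive or to lack both co-receptors. Cd4 was found in 17 of 101 cells (16.8%) against 31.4% of the others, and Cd8b1 in 8 of 101 (7.92%) against 45.8%. A cell without a UMI may still express the gene at this depth.

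For expression, UMIs were summed for the 80 TRAV11-TRAJ18 cells and the 4008 other TRA cells of the 6 hashtags, and the sums were compared within hashtags by edgeR's quasi-likelihood test with Benjamini-Hochberg adjustment. The sums of the described cells held 28562 to 126026 UMIs, so 1 UMI was worth 7.93 to 35 CPM, and those of the other cells 2650340 to 4649198 UMIs. Of 8107 genes tested, 157 were higher (1.94%) and 523 lower (6.45%) at adjusted p under 0.05. That split depended on scaling. Without TMM scaling it was 314 higher and 240 lower, and the median log2 fold change of all genes moved from -0.23 to 0.08, a shift of 0.31 that bears on every small change. Called in the same direction by edgeR with TMM, edgeR without scaling and DESeq2 were 131 genes higher (1.62%) and 167 lower (2.06%). Without hashtag 4, the largest group, 96 genes were higher (1.2%) and 437 lower (5.45%). All fold changes below are log2 differences with TMM scaling, given with the standard error. This error comes from the fold change and the test's F value, so it need not follow a gene's own spread between hashtags. Ccl5 has an error of 0.14 although it was above the other cells in 2 of 6 hashtags. Small errors and small adjusted p-values are therefore not read as agreement between hashtags.

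With receptor segments such as Tcrg-C1 and the other gene classes excluded by the naming rule left out, the 10 genes with the largest increases that were higher in all 6 hashtags were Zbtb16, Il17re, Pxdc1, Il17rb, Klrb1c, Lmo4, Tmem176a, Qpct, Tmem176b and Ckb. Zbtb16, Il17re, Il17rb, Klrb1c and Qpct were at no more than 6.24 CPM in any sum of the other cells. They passed the filter on low counts that preceded the test only through the TRAV11-TRAJ18 sums. For them, being higher in all 6 hashtags was therefore a condition of being tested and is not a result. Genes as rare in the other cells but at 0 in a TRAV11-TRAJ18 sum were left out by that filter. Zbtb16 was higher by 6.43 ± 0.38 (edgeR adjusted p = 1.79e-61). Il17re, a subunit of the IL-17C receptor, was at 27.1, 18.5, 184, 71.4, 105 and 222 CPM in hashtags 1, 2, 3, 4, 5 and 8 and at 0.594 to 3.77 CPM in the other cells, a difference of 5.42 ± 0.45. Il17rb, the receptor subunit for IL-25, was higher by 4.61 ± 0.48. Klrb1c, which encodes the NK1.1 antigen, was higher by 4.58 ± 0.43, with 31.7 to 217 CPM against 2.18 to 6.23 CPM. Lmo4, a LIM-domain partner of transcription factors, was at 380, 185, 1013, 1047, 665 and 598 CPM against 18.5 to 38.6 CPM and was higher by 4.17 ± 0.21 (adjusted p = 6.23e-82). Lmo4 was above every value of the other cells in every hashtag, and so were Il17re and Il17rb, for which the filter required it.

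Among the 21 genes of the list shared by iNKT cells, all tested, 7 were higher and 7 lower, with a median log2 fold change of 0.24 against -0.23 over all genes. Higher were Zbtb16, Klrb1c, Id2, Cxcr6, Icos, Il18r1 and Il12rb1. Id2, an inhibitor of E proteins that innate-like lymphocytes express, was at 1383, 1406, 1197, 1016, 1365 and 1507 CPM in hashtags 1, 2, 3, 4, 5 and 8 and at 63.0 to 236 CPM in the other cells. Its difference was 3.18 ± 0.15 (adjusted p = 5.29e-91). Cxcr6 (chr9:123806475-123811760, plus strand, GRCm38), a chemokine receptor of tissue-positioned lymphocytes, was at 1193, 444, 1013, 1230, 1260 and 1286 CPM against 93.2 to 121 CPM, a difference of 2.92 ± 0.16. Hashtag 2 was the lowest for Cxcr6 and still above every value of the other cells. Icos, a costimulatory receptor, was higher by 1.47 ± 0.19 and the IL-18 receptor gene Il18r1 by 1.82 ± 0.28.

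Id3, another inhibitor of E proteins, went the other way. It was at 23.8 CPM under hashtag 4, from 1 cell, and at 0 in the other 5 hashtags, against 132 to 277 CPM, and differed by -4.94 ± 0.45 (edgeR adjusted p = 7.53e-25). Slamf6, a receptor of iNKT selection in the thymus, was lower by -2.50 ± 0.39, Tox by -2.40 ± 0.43, the adaptor gene Sh2d1a by -1.28 ± 0.25 and Cd5 by -1.33 ± 0.23. Cd69 (-0.96 ± 0.27) and Il2rb (-0.61 ± 0.19) passed with TMM, but not with DESeq2 or without scaling, where the adjusted p was 0.166 and 0.164 for Cd69 and 0.586 and 0.533 for Il2rb.

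**Figure D3:**
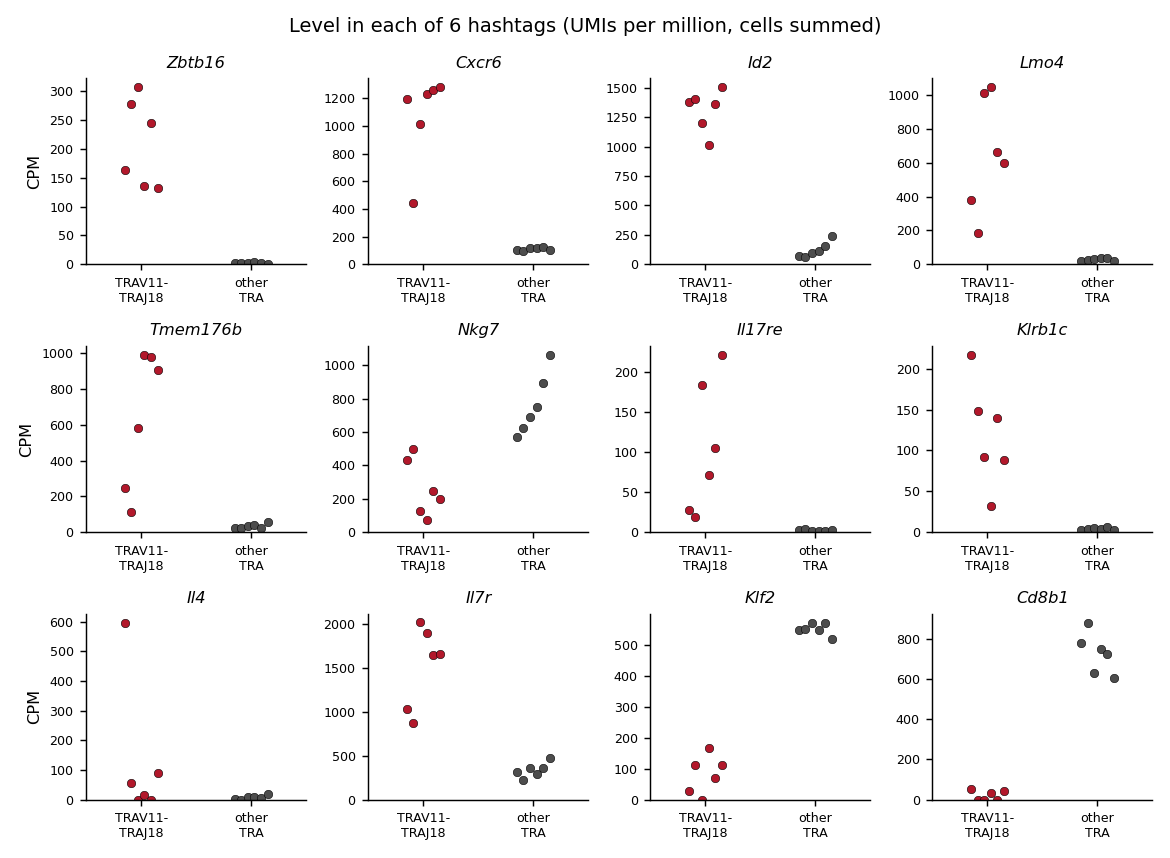
Levels of 12 genes in CPM (scaled UMIs, cells of a hashtag summed), in TRAV11-TRAJ18 cells (red) and other TRA cells (grey), with 1 point for each of 6 hashtags in the order 1, 2, 3, 4, 5, 8. Zbtb16, Cxcr6, Id2, Lmo4, Il17re, Klrb1c, Tmem176b and Il7r do not overlap between the groups, Nkg7 lies below the other cells, and Il4 stands high under hashtag 1 at 597 CPM. Zbtb16, Il17re and Klrb1c could pass the filter on low counts only without such overlap.

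Of the 17 genes of the NKT17 list 10 passed the filter on low counts. Of these, 8 were higher and 0 lower, with a median of 2.74. Tmem176a and Tmem176b, a linked pair of membrane protein genes, were higher by 3.94 ± 0.26 and 3.92 ± 0.21. Tmem176b was at 244 and 111 CPM in hashtags 1 and 2 and at 583, 992, 980 and 909 CPM in hashtags 3, 4, 5 and 8, against 19.6 to 55.9 CPM in the other cells. Pxdc1 was higher by 5.04 ± 0.31, Serpinb1a by 3.77 ± 0.40, Aqp3 by 2.76 ± 0.36 and the chemokine receptor gene Ccr2 by 2.73 ± 0.29. Aqp3 was at 0 CPM under hashtag 1. Rora, which encodes a nuclear receptor, was higher by 2.33 ± 0.32, and Ramp1 by 2.02 ± 0.18. Ccr6 (1.04 ± 0.41, adjusted p = 0.0973) and Maf (0.65 ± 0.25, adjusted p = 0.0956) did not pass, but both did without scaling (adjusted p = 0.0208 and 0.00389), which gave 10 of 10 higher. The same 8 genes passed without hashtag 4.

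Other genes of the list had too few UMIs for the filter and were tested only in the fit without it, where 208 of 16492 genes were higher (1.26%) and 650 lower (3.94%). Sdc1, which encodes syndecan-1, was at 0 CPM under hashtags 1 and 2 and at 61.4, 87.3, 35 and 66.5 CPM under hashtags 3, 4, 5 and 8, against 0.755 to 3.90 CPM in the other cells. In that fit it was higher by 3.81 ± 0.63 (edgeR adjusted p = 1.13e-07). Also higher there were the interleukin receptor genes Il1r1 (3.70 ± 0.83) and Il23r (3.29 ± 0.83) and the kinase gene Blk (2.39 ± 0.66). All are known from NKT17 cells. Il1r1, Il23r and Blk rested on only 8, 8 and 10 UMIs in the summed cells. Il1r1 and Blk were at 0 CPM under hashtags 1, 2 and 3, and Il23r under hashtags 1 and 3. Blk was also found in 45.6% of the cells with B cell genes, against 12.9% of the described cells. The part of B cell RNA in its level was not tested. The cytokine genes Il17a and Il17f had 0 UMIs in all 7043 TRA cells.

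The NKT1 list depended on the cells compared with. Against all other TRA cells 9 of 16 tested genes were lower and 0 higher, with a median of -1.43, or -1.31 with Klra7, which had no UMI in the 80 cells, set to the bound that 3 counts allow. Without scaling 7 were lower and 2 higher (Cxcr3 and Klrk1), DESeq2 called 5 lower and 0 higher, and edgeR without hashtag 4 gave 6 lower and 1 higher (Klrk1). Nkg7, a protein of cytotoxic granules, was at 434, 499, 123, 71.4, 245 and 199 CPM in hashtags 1, 2, 3, 4, 5 and 8 against 572 to 1065 CPM, a difference of -2.0 ± 0.19. Eomes, a T-box factor of memory CD8 T cells and NK cells, was lower by -3.09 ± 0.54, Klrd1 by -2.28 ± 0.38, Gzmm by -3.97 ± 0.92 and Ms4a4b by -1.36 ± 0.15. The chemokine gene Ccl5 was lower by -1.72 ± 0.14 although it was above the other cells in 2 of 6 hashtags, and it did not pass with DESeq2 (adjusted p = 0.286). Hopx and Klre1 also lost the call with DESeq2 (adjusted p = 0.0877 and 0.237), and Klra7 without scaling (adjusted p = 0.0513). Tbx21, which encodes T-bet, was at 0 to 129 CPM against 27.5 to 50.5 CPM (0.54 ± 0.38, adjusted p = 0.516).

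Other TRA cells were then split by co-receptor UMIs. Against the 1101 other cells with a Cd4 UMI and no Cd8a or Cd8b1 UMI, 8 genes of the NKT1 list were tested, of which 4 were higher and 1 lower, where 3.38% and 4.68% of 4680 genes were called. Higher were Tbx21 (2.10 ± 0.45, edgeR adjusted p = 0.000695), Xcl1 (1.84 ± 0.43), Ccl5 (1.43 ± 0.34) and Cxcr3 (1.17 ± 0.23), and Ms4a4b was lower (-0.63 ± 0.16). Against the 1796 other cells with a Cd8a or Cd8b1 UMI and no Cd4 UMI, 9 of 15 genes were lower and 0 higher, where 3.12% and 7.04% of 6660 genes were called. Ccl5 was lower by -2.37 ± 0.12 there, and Tbx21 differed by -0.01 ± 0.35. Both comparisons share the TRAV11-TRAJ18 sums. Higher against either group were Zbtb16 (7.21 ± 0.52 and 7.31 ± 0.45), Id2 (3.35 ± 0.15 and 3.34 ± 0.15), Cxcr6 (4.64 ± 0.19 and 2.44 ± 0.15) and Tmem176b (3.8 ± 0.28 and 5.73 ± 0.25), the Cd4 group given first.

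Of the NKT2 list 2 of 9 tested genes were higher and 4 lower. Il17rb was described above. Il4 was at 597 CPM under hashtag 1, at 55.5, 15.9 and 88.7 CPM under hashtags 2, 4 and 8 and at 0 under hashtags 3 and 5, against 0.377 to 18.7 CPM. It was higher by 3.48 ± 0.43, but 17 of its 31 UMIs came from 1 cell, and it did not pass without hashtag 1 (1.54, adjusted p = 0.154) or with DESeq2 (adjusted p = 0.464). Gata3 was at 81.3 to 222 CPM against 56.6 to 91.4 CPM, higher in 6 of 6 hashtags (0.78 ± 0.28, adjusted p = 0.0596). It passed with DESeq2 and without scaling (adjusted p = 0.033 and 0.0023). Izumo1r, the folate receptor 4 of regulatory and helper T cells, was lower by -2.23 ± 0.23 and Cd4 by -1.65 ± 0.33. Il6ra and Plac8 were lower with TMM but not with DESeq2 (adjusted p = 0.219 and 0.194) or without scaling (adjusted p = 0.184 and 0.119).

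Of 11 genes of the recirculation and naive list 7 were lower and 1 higher. Klf2, the transcription factor that drives lymph node exit, was at 27.1, 111, 0, 167, 70.0 and 111 CPM in hashtags 1, 2, 3, 4, 5 and 8 against 519 to 571 CPM, a difference of -2.76 ± 0.23. Its target S1pr1, the exit receptor, was lower by -2.12 ± 0.38, the lymph node homing receptor gene Ccr7 by -2.53 ± 0.31, and Lef1 by -1.25 ± 0.25. Il7r, the IL-7 receptor, was higher by 1.81 ± 0.14, at 1030, 869, 2026, 1896, 1646 and 1662 CPM against 223 to 471 CPM. Klf2 and Il7r did not overlap between the groups. Of 5 tissue retention genes tested, 1 was higher (Ccr9, a gut-homing receptor, by 2.80 ± 0.46) and 0 lower. Ccr9 had 23 UMIs in the 80 cells and was at 0 under hashtags 3 and 5. Against the other cells with a Cd4 UMI and no Cd8a or Cd8b1 UMI, 3 genes of this list were tested. Itgb7 was higher there and Rgs1 lower.

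Lineage genes of conventional T cells were lower for 7 of 12 genes and higher for 1. Cd8b1 was lower by -5.20 ± 0.30 and Cd8a by -5.54 ± 0.41. Foxp3, the regulatory T cell factor, was lower by -3.83 ± 0.68, Ctla4 by -2.81 ± 0.46 and Cd27 by -1.29 ± 0.24. Tnfrsf4 was at 175 CPM under hashtag 5, with 4 of its 5 UMIs in 1 cell, and at 0 in the other 5 hashtags, against 128 to 261 CPM (-3.82 ± 0.42). Il2ra, the IL-2 receptor alpha chain, was higher by 1.49 ± 0.31. These calls depended on the cells compared with. Against the other cells with a Cd4 UMI and no Cd8a or Cd8b1 UMI, Il2ra lost its call, while 5 of 10 tested genes were lower. Against those with a Cd8a or Cd8b1 UMI and no Cd4 UMI, Ctla4 and Tnfrsf4 lost theirs, while Il2ra stayed higher. In the follicular helper and regulatory NKT list 3 of 6 genes were lower and 0 higher, namely Pdcd1 (-2.41 ± 0.37), Lag3 (-5.20 ± 0.72) and Cxcr5. Pdcd1 also lost its call against the cells with a Cd8a or Cd8b1 UMI, while Lag3 and Cxcr5 kept theirs. Of 5 cytotoxic genes 3 were lower, among them Prf1, the perforin gene (-4.06 ± 0.90), and 1 was higher, the death receptor ligand gene Fasl (1.97 ± 0.37).

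All 6 genes of the cell cycle list were lower (Mki67, Top2a, Stmn1, Pcna, Hist1h1b and Tubb5). The 10 genes that the naming rule took for decreases were Penk, Pclaf, Top2a, Ube2c, Ccl4, Mki67, Racgap1, Cxcr5, Birc5 and Nrn1. None of these 10 had a UMI in the 80 cells, so their order is not read and only lower bounds are given, against 3 counts over the group (9.28 CPM). Top2a was at least 8.39-fold lower, with 57.4 to 114 CPM in the other cells, and Mki67 at least 5.61-fold lower, with 37.9 to 73.0 CPM. Penk, which encodes proenkephalin, was at least 13.9-fold lower and Cxcr5, the follicle-homing receptor, at least 4.73-fold lower. Stmn1 (-3.73 ± 0.47) and Tubb5 (-1.21 ± 0.16) were lower too, and Pcna (-1.46 ± 0.45) with TMM but not by DESeq2 (adjusted p = 0.189) or without scaling (adjusted p = 0.127). In all, 62 of the 523 lower genes had no UMI in the 80 cells.

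Of 8 cytokine and receptor genes 3 were higher and 1 lower. Ltb, the lymphotoxin beta gene, was higher by 0.61 ± 0.13 in 6 of 6 hashtags, by 0.97 without scaling and by 0.82 with DESeq2. Ifngr1, a chain of the interferon gamma receptor, was at 108, 92.5, 491, 714, 525 and 1241 CPM in hashtags 1, 2, 3, 4, 5 and 8 against 171 to 227 CPM, so it was below the other cells under hashtags 1 and 2. Its difference of 0.97 ± 0.18 did not pass with DESeq2 (adjusted p = 0.637). Tnf rested on hashtag 1, with 24 of its 39 UMIs in 1 cell there (0.94 ± 0.33, and -0.67 without that hashtag). In the interferon gamma response list 2 of 16 genes were higher and 0 lower. Igtp, an interferon-inducible GTPase, was higher by 0.99 ± 0.21, with 70.0 to 434 CPM against 83.4 to 176 CPM. Cxcl10 came from 1 cell of hashtag 1, which held all 21 UMIs. Without scaling 7 of 16 were called higher.

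**Figure D4:**
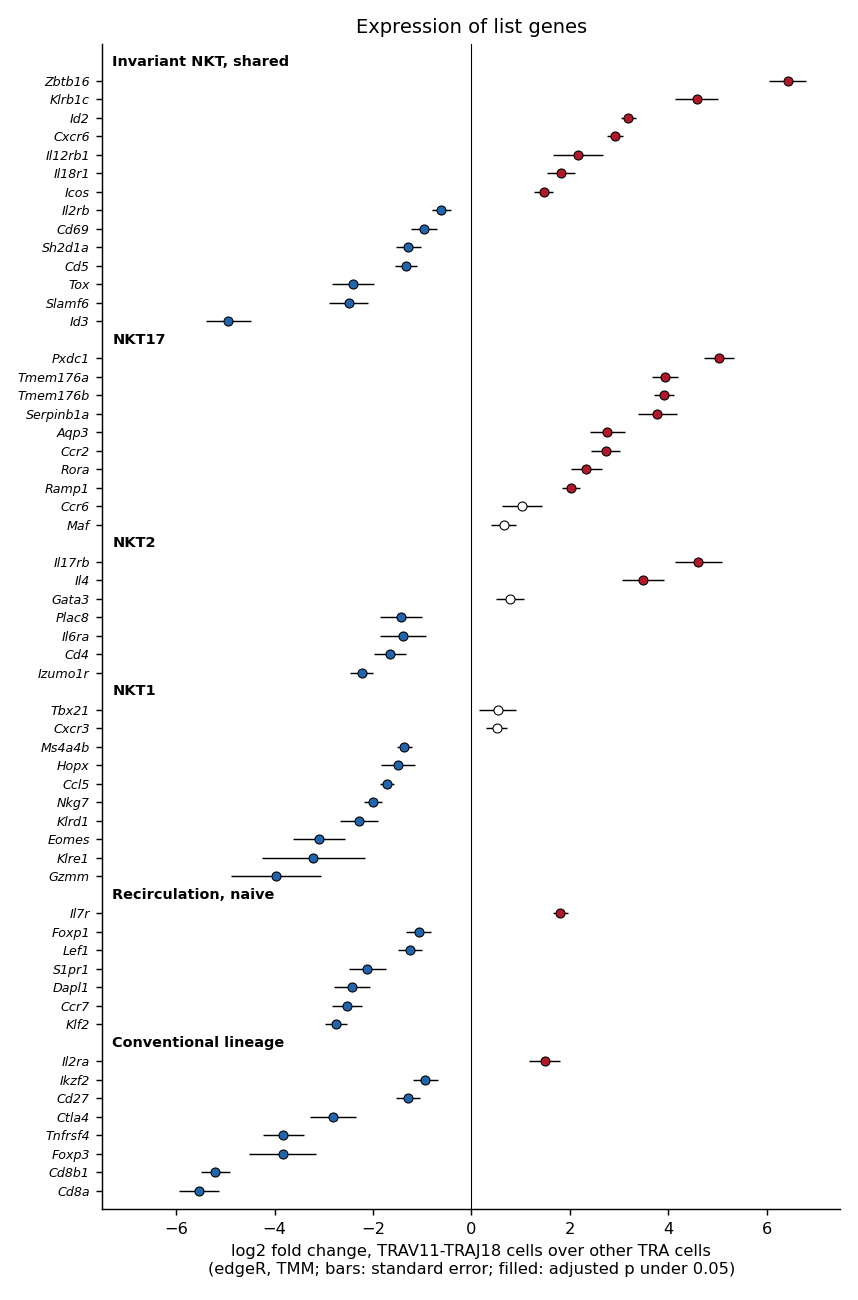
Log2 fold change of genes from 6 lists, TRAV11-TRAJ18 cells over other TRA cells of 6 hashtags, with the standard error as bars. Filled points passed an adjusted p of 0.05 (red higher, blue lower) and open points did not. Shown are called genes of each list, with 5 open ones for comparison. NKT17 genes lie to the right, from 0.65 for Maf to 5.04 for Pxdc1, and NKT1, recirculation and lineage genes mostly to the left.

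The 101 cells were not uniform. Tmem176b UMIs were found in 63 cells (62.4%), Gata3 in 40, Il17rb in 19, Klrb1c in 17, Tbx21 in 17 and Il4 in 12. In the 641 cells with B cell genes the shares were 12.3% for Tmem176b, 12.0% for Tbx21 and 0.156% to 0.780% for the other 4. The share of Tbx21 was 16.8% (10.1 to 25.6) in the described cells and 13.5% in the other TRA cells. Nkg7 was found in 14 of 17 cells with Klrb1c (82.4%) and in 18 of 84 without (21.4%), and Xcl1 in 10 of 17 (58.8%) and in 11 of 84 (13.1%). The chemokine receptor gene Cxcr3 was found in 13 of 17 (76.5%) and in 32 of 84 (38.1%). In the other direction, Lmo4 was found in 6 of 17 cells with Klrb1c (35.3%) and in 61 of 84 without (72.6%), and Ccr6 in 0 of 17 and 21 of 84. Cells with Klrb1c had a median of 3017.0 UMIs against 3832.0 without. The part of depth in these shares was not tested.

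Detection also differed between hashtags. Tmem176b was found in 3 of 11 and 3 of 13 cells of hashtags 1 and 2, and in 6 of 8, 28 of 33, 5 of 6 and 7 of 9 cells of hashtags 3, 4, 5 and 8. Nkg7 ran the other way, with 7 of 11 and 8 of 13 cells of hashtags 1 and 2 and 1 of 8, 4 of 33, 2 of 6 and 4 of 9 of hashtags 3, 4, 5 and 8. Klrb1c was found in 4 of 11 and 4 of 13 cells of hashtags 1 and 2 and in 1 of 8, 3 of 33, 2 of 6 and 2 of 9 of hashtags 3, 4, 5 and 8. Hashtags 1 and 2 were thus the lowest in Tmem176b and the highest in Nkg7. Median depth of the cells was 3192.0 and 4700.0 UMIs in hashtags 1 and 2, and 4016.5, 2569.0, 4259.0 and 5445.0 UMIs in hashtags 3, 4, 5 and 8, and its part was not tested. By beta chain, Tmem176b was found in 28 of the 38 TRBV13-2 cells, 14 of 22 TRBV1 cells, 7 of 15 TRBV13-3 cells, 7 of 13 TRBV13-1 cells and 6 of 11 TRBV29 cells.

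**Figure D5:**
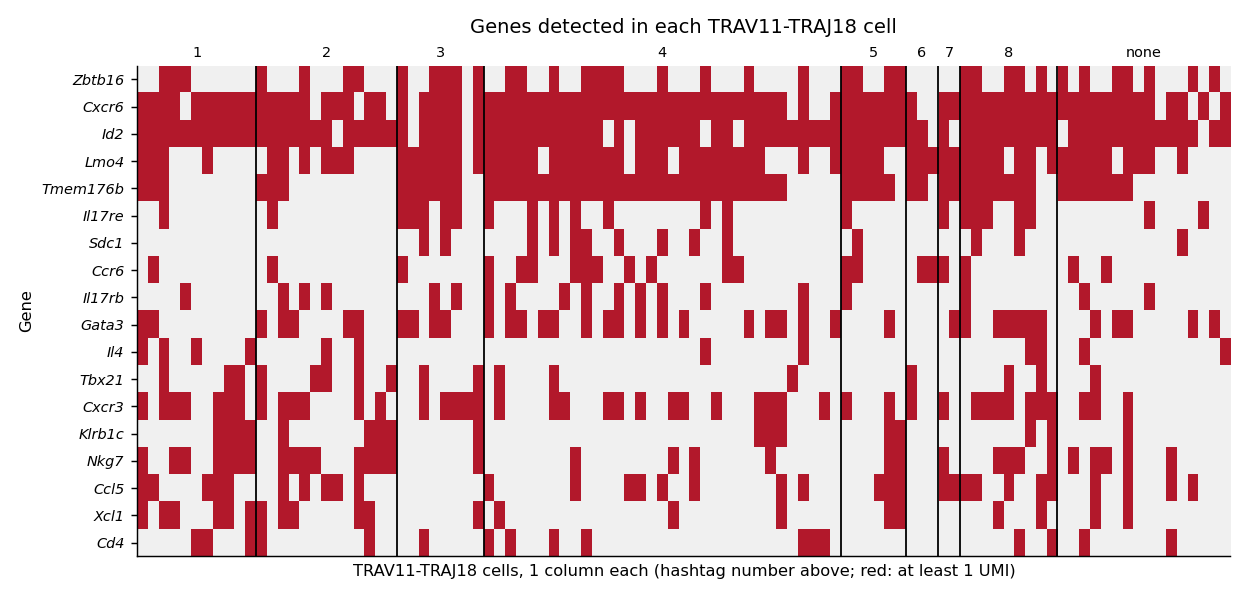
Detection of 18 genes (rows) in each of the 101 TRAV11-TRAJ18 cells (columns), grouped by hashtag number with cells lacking a hashtag last, and ordered within a hashtag by Tmem176b and Klrb1c. Red marks at least 1 UMI. Tmem176b is filled in 3 of 11 and 3 of 13 cells under hashtags 1 and 2 and in 28 of 33 under hashtag 4, while Cxcr6 and Id2 are filled in 87 and 90 of 101 cells.

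Genes of other cell types were checked beside these results. The 5 B cell genes summed to 0 to 436 CPM over the hashtags in the TRAV11-TRAJ18 cells and 54.7 to 432 CPM in the other TRA cells, against 7529 CPM in the 641 cells with B cell genes. Hashtag 4 stood apart, with Cd79a at 183, Cd79b at 111, Iglc2 at 87.3 and Ms4a1 at 55.5 CPM, while the other 5 hashtags had 0 to 35 CPM of each. With all hashtags 0 of 4 tested B cell genes were called, and without hashtag 4 Cd79a, Cd79b and Iglc2 were called lower (3 of 3 tested). The 5 myeloid genes summed to 388 to 1382 CPM against 171 to 243 CPM, and to 1321 CPM in the cells with B cell genes. Lyz2, the lysozyme gene, was at 108, 37.0, 1105, 397, 105 and 864 CPM in hashtags 1, 2, 3, 4, 5 and 8 against 17.2 to 79.3 CPM (2.78 ± 0.23). It was found in 24 of 101 cells and in 96 of the 641 cells with B cell genes, while Itgam had 0 UMIs. Of the gamma delta T cell list Tcrg-C1, a constant segment of the receptor gamma chain, was at 55.5 to 278 CPM against 1.08 to 7.79 CPM (5.09 ± 0.39). The defining Trdc had 0 UMIs in the 101 cells, which allows up to 2.97% of cells with a UMI and sets no limit on cells that express the gene. The part of other cells in these levels was not tested. Cst3, the other myeloid gene called higher (0.76), was at 0.48 without hashtag 1 (edgeR adjusted p = 0.272).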

How the data were processed

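Gene, hashtag and T cell receptor reads of 1 pool of lymph node T cells were used. The deposited matrices hold raw UMI counts per gene or hashtag and cell, and the contig table holds UMI counts per receptor contig. The authors made them with Cell Ranger 3.1.0 on mm10/GRCm38, per the submitters' processing notes. Of 13016 barcodes, 12804 were kept. A cell took the hashtag with most UMIs when that had at least 10 UMIs and 3 times the next. Columns of no known sample numbered 0. Scrublet (in Scanpy 1.11.5) marked 0 cells and so had not worked. Doublets stayed in, and an alternative left out cells with more than 2 TRA or more than 1 TRB chain.

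UMI counts were summed per hashtag and class (TRAV11-TRAJ18 or other TRA) in hashtags with at least 5 such cells. The sums were tested with edgeR 4.0.16 (quasi-likelihood, TMM, filterByExpr, Benjamini-Hochberg, adjusted p under 0.05) with the hashtag as a block, since both sums of a hashtag come from the same stained sample. DESeq2 1.42.0 was an alternative. TRBV genes at 2% or more of cells in either class were tested by exact sign-flip permutation over hashtags. Intervals are exact (95%) and cover counting error only, and a count of 0 is given the limit of 3 counts. The scripts were tested on simulated data. Gene positions are from GENCODE M21 (GRCm38), which held 30934 of 31053 gene IDs.

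Named genes were members of lists for iNKT subsets, T cell states and other cell types, plus the 10 largest called changes in each direction on the same side in every hashtag, without receptor, immunoglobulin, mitochondrial, ribosomal, Gm, Rik, Xist and Y-linked genes. The cells and lists were chosen with earlier results of these data known. Alternatives changed the scaling, filter, block, hashtag rule, comparison cells, clonotype counting, mitochondrial limit and contig UMIs, or left out each hashtag in turn. Some genes of the lists enter the counts and are not reported by name here.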

Additional observations from a re-analysis of the deposited data

Results flagged for a closer look

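In 6 of 31 groups of 6 hashtag values, 1 hashtag stood far from the others for its TRAV11-TRAJ18 cells. Chance flags about 1 in 20 groups of continuous values, a rate that does not hold for sparse counts: for Id3, Cxcl10 and Tnfrsf4 the other 5 hashtags were at 0, so any single cell with a UMI is picked out. Cxcr6 under hashtag 2 was at 444 CPM, below the others. Il4 under hashtag 1 was at 597 CPM, with 17 of 31 UMIs in 1 cell, and Tnf under hashtag 1 was at 759 CPM, with 24 of 39 UMIs in 1 cell. Cxcl10 under hashtag 1 was at 569 CPM, all from 1 cell. Id3 under hashtag 4 was at 23.8 CPM, from 1 cell, and Tnfrsf4 under hashtag 5 was at 175 CPM, with 4 of 5 UMIs in 1 cell.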

How the results depend on the processing

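Of 88 named genes that passed the test, 53 passed in every setting that tested them. The number of genes higher in members of the TRAV11-TRAJ18 group (157) was 314 without scaling and 96 to 152 with a hashtag left out, the lowest without hashtag 4. The number of genes lower in members (523) was 232 with at least 10 such cells a hashtag, 219 against Cd4 cells, 194 with DESeq2, 240 without scaling and 428 to 437 with a hashtag left out. No replicate block gave 153 and 517, of which 129 and 435 were shared with the blocked fit. Signs turned for Ccl5 (1.43), Nkg7 (0.83) and Maf (-0.11) against Cd4 cells, for Ikzf2 (1.10), Izumo1r (0.12) and Tbx21 (-0.012) against Cd8 cells, and for Cxcl10 (-0.96) with DESeq2. Tnf was -0.026 with DESeq2 and -0.67 to 1.48 with a hashtag left out. Xcl1 (-0.01) was 0.37 with at least 10 such cells a hashtag, 0.026 with the hashtag at 5 times the next, 1.84 against Cd4 cells, 0.068 with 1 cell per clonotype, 0.073 without doublets, 0.065 with DESeq2, 0.33 without scaling, 0.0059 with no replicate block and -0.42 to 0.33 with a hashtag left out. The causes were not tested.

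The TRBV13-1 difference (-0.01 percentage points) was 0.41 once per clonotype, 0.91 and 0.27 with the hashtag at 2 and 5 times the next, 0.39 in cells with the most frequent CDR3 and -3.55 to 1.68 with a hashtag left out. The share of the TRBV13, TRBV29 or TRBV1 genes differed by 66.0 points with contigs of at least 3 UMIs (exact p = 0.125) and by 64.1 to 66.8 with a hashtag left out, where 5 hashtags cannot go below p = 0.0625. The percent of cells with a productive TRA chain that are members was 1.07 with contigs of at least 3 UMIs. Detection in single cells moves with depth, since Zbtb16 was found in 38.6% of cells and in 18.6% at 1000 UMIs.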

Other observations

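Zbtb16 UMIs were found in 137 cells in all, of which 39 carried the TRAV11-TRAJ18 chain and 40 another TRA chain. The other 58 were among the 5761 cells without a productive TRA contig (1.01%). Of these 58 cells, 25 had a TRB contig, which used TRBV13, TRBV29 or TRBV1 in 17, and 1 had a UMI of Trdc, the constant segment of the delta chain. Cells with TRAV1 joined to TRAJ33, the alpha chain of mucosal-associated invariant T cells, numbered 6, of which 3 had a Zbtb16 UMI.

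The J segment TRBJ1-5 was used by 10 of the TRAV11-TRAJ18 cells (9.90%) and by 3.14% of the other TRA cells, with no test. It is named because its ratio was the largest among all TRBJ genes seen, so it is not read as a trait of the cells. Others lay closer, such as TRBJ1-1 (10.9% against 11.6%) and TRBJ2-5 (12.9% against 12.2%). In the fit without a filter on low counts Sox13, a transcription factor of gamma delta T cells, had 6 UMIs in the 80 cells and 1 UMI in the 4008 other cells.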
